A study of Arabidopsis thaliana with 12 samples.

Results

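The transcript levels of whole Arabidopsis thaliana seedlings that had been in hydrogen peroxide (H2O2) for 8 min were compared with those of seedlings that had been in it for 4 min. The comparison used 6 of the 12 RNA-Seq libraries of the seedling time course, 3 for each time point, and took in every gene whose normalized count averaged 10 or more over the 12 libraries, which left 19485 of 20972 listed genes. The question was which transcripts still moved in the last interval of the time course. Both groups were Col wild type seedlings that had grown for 5 days in liquid MS medium, shaken under constant light, and both received 1 mM H2O2. The other 6 libraries, used here for the estimate of the spread and as earlier values, came from control seedlings given distilled water at 0 min and from seedlings after 2 min of 1 mM H2O2. About 100 to 150 seedlings went into each time point and the experiment was run 3 times. Water at 4 or 8 min was not analysed here, so time in H2O2 and time since liquid was added cannot be told apart.

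H2O2 is made at the plasma membrane by respiratory burst oxidases and in chloroplasts, mitochondria and peroxisomes, and in plants it acts as a signal as well as an oxidant. Together with calcium it carries a wave that passes from cell to cell and informs distant tissue of a stress. Transcripts of WRKY, ERF and C2H2 zinc finger transcription factors, of calcium-binding proteins and of heat shock factors are well known for their quick accumulation after H2O2, wounding, touch and excess light.

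The libraries held between 15951420 and 19467934 reads at 4 min and between 16371777 and 26618274 reads at 8 min, where reads were recovered from the deposited normalized counts. Pearson's r of log2 values across genes was 0.984 to 0.991 within 4 min, 0.984 to 0.988 within 8 min and 0.979 to 0.991 between the time points, so that libraries of different time points were about as alike as replicates (genes are not independent replicates). Every listed gene held at least 1 read in each library, so genes with 0 reads in any library are not covered here. The presence of a listed marker is therefore fixed in advance, and only levels are given. Defining transcripts of leaf mesophyll, epidermis, vasculature and root ranged from 134848 normalized counts or more for RBCS1A in mesophyll to 2.94 or more for PLT2 of the root meristem. PLT2 was not among the genes tested. In such bulk samples fewer cells of a type and less RNA per cell cannot be told apart. Transcripts of the seed storage proteins CRU3 and CRA1, which belong to the seed and not to the grown seedling, differed between libraries of 1 time point by up to 11.9-fold. Their values are given below beside those of single genes that they moved with.

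At 8 min 0 genes were higher and 0 genes were lower than at 4 min at an adjusted p under 0.05 (limma on log2(normalized count + 1), 1 fit of all 12 libraries, Benjamini-Hochberg over 19485 genes, 0% called in each direction). The lowest adjusted p was 0.0654 and 6 genes, all higher at 8 min, were under 0.1. At an unadjusted p under 0.05, limma counted 343 genes as higher (1.76% of genes tested) and 203 as lower (1.04%). The share of higher genes among these was 62.8%, and after quantile normalization it was 50.7%. The 343 and 203 genes together made up less than the share of 0.05 that would lie under this p if no gene differed. Count models on the recovered reads called more genes at an adjusted p under 0.05. DESeq2 called 31 genes higher (0.159%) and 2 lower (0.0103%), whereas edgeR called 2 higher (0.0103%) and 0 lower. At an unadjusted p under 0.05, edgeR had 209 lower (1.07%). The edgeR count of higher genes at this unadjusted p is not given here, so no direction is read from the 209. Of the 33 DESeq2 genes, 27 were called again by DESeq2 on the 6 libraries alone, and bZIP1, PUP18, LYK5, PAP1, AT1G59860 and AT3G23450 were not. All 33 genes called by DESeq2 had an unadjusted p under 0.05 with limma, which used the same libraries and is no separate evidence. Their adjusted p-values in limma were 0.0654 to 0.675. Without replicate 1 of 4 min, limma called 6 genes higher, and without replicate 3 of 8 min or replicate 2 of the water group it called 1 and 2. With the replicate number as a block, limma called 8 genes higher.

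The differences between 4 and 8 min were small for most genes. The median log2 difference over all genes tested was 0.01, 5% of genes lay under -0.23 and 5% above 0.30, and the median standard error was 0.119. A difference of at least 1 on the log2 scale was seen for 20 genes above (0.103%) and 6 genes below 0 (0.0308%). In 756 genes (3.88%) all 3 libraries at 8 min lay above all 3 libraries at 4 min, and in 541 genes (2.78%) they all lay below. If no gene differed, a share of 0.1 of genes would separate in 1 direction or the other, more than both shares together. With 3 libraries in each group, the smallest two-sided p of an exact permutation test on 1 gene is 0.1. The p-values given here therefore come from models fitted across all genes, and they set each difference against the spread between these libraries.

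**Figure D1:**
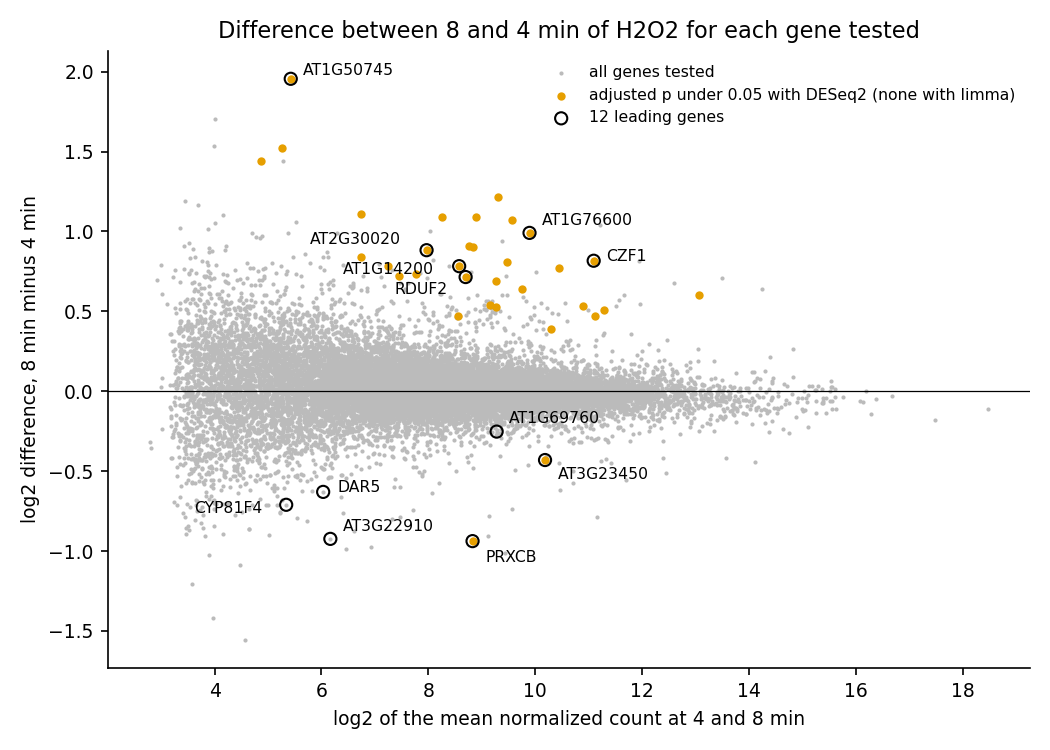
Log2 difference of 8 min minus 4 min (y axis, limma on log2(normalized count + 1)) against the log2 mean normalized count at both time points (x axis) for each of the 19485 genes tested. Orange points are the 33 genes called by DESeq2 and circles the 12 leading genes. The orange points above 0 number 31 and those below 0 number 2, and most genes lie within -0.23 to 0.30.

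With no gene past the threshold, the genes described first are the 6 in each direction that had the lowest unadjusted p among those whose libraries did not overlap between 4 and 8 min. They were chosen by these values, which are therefore given as a description. The 6 with higher values at 8 min were AT1G14200, AT1G50745, AT1G76600, AT2G30020, CZF1 and RDUF2, and the 8 min mean was 1.63 to 3.99 times the 4 min mean.

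AT1G14200, a RING/U-box family protein (chr1:4854224-4855287, minus strand, TAIR10.1), had the lowest unadjusted p of all genes. Its normalized counts were 316, 260.4 and 266 at 4 min and 498, 504 and 445 at 8 min. The 8 min libraries lay close together and well above the 4 min libraries, which in turn stood near the 2 min mean of 273 ± 24.4 (SD, n = 3). The log2 difference was 0.78 ± 0.11 (SE), with an adjusted p of 0.0654 in limma, 0.0316 in edgeR and 1.16e-06 in DESeq2. RDUF2 (AT5G59550, chr5:23998164-24000166, minus strand), a RING finger ubiquitin ligase, had 364, 324 and 259 normalized counts at 4 min and 536, 535 and 471 at 8 min, a log2 difference of 0.71 ± 0.11 (SE; limma adjusted p 0.0829). Its lowest library at 8 min was thus above its highest at 4 min, and the 4 min libraries were themselves spread more widely than those at 8 min.

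AT1G50745 (chr1:18808866-18810504, minus strand), a plant mobile domain protein, had the largest log2 difference of all genes tested, 1.95 ± 0.28 (SE; limma adjusted p 0.0654, edgeR 0.0181). The transcript was scarce up to 4 min, with 21.3, 17.1 and 13.2 normalized counts at 4 min, and reached 74.6, 61 and 70.6 at 8 min. The next gene on the same strand, AT1G50750 (chr1:18810603-18812050), another mobile domain protein, lies 98 bases upstream of AT1G50745. AT1G50750 had 16.8, 17.1 and 22 normalized counts at 4 min and 76.8, 35.3 and 61.8 at 8 min, a log2 difference of 1.52 ± 0.32 (SE; limma adjusted p 0.254, DESeq2 0.0187). Both neighbours were thus low at 4 min and higher in each 8 min library, although replicate 2 of 8 min was the lowest of its group for both. AT1G50745 also overlaps AT1G50740 on the opposite strand, with 121 stretches of 50 bases in common, and whether reads were counted by strand is not given in the sources used here.

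CZF1 (AT2G40140, also SZF2, chr2:16771997-16774734, plus strand) encodes a CCCH zinc finger protein of a stress-induced family. Its normalized counts were 1938, 1337 and 1483 at 4 min and 3203, 2741 and 2394 at 8 min, and its log2 difference was 0.82 ± 0.13 (SE; limma adjusted p 0.0829). Of the 6 genes it was the most abundant, and its level had been 969.9 at 0 min and 1129 at 2 min. Its paralog SZF1 (AT3G55980) had 1955, 1232 and 1435 normalized counts at 4 min and 3780.5, 3388 and 2341 at 8 min, a log2 difference of 1.04 ± 0.22 (SE; limma adjusted p 0.275). Both CCCH genes were highest in replicate 1 at each of these time points, and lowest in replicate 2 at 4 min and in replicate 3 at 8 min.

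AT2G30020 (chr2:12814271-12816360, plus strand), a protein phosphatase 2C, belongs to the enzymes that take phosphate off protein kinases. It had 199, 159.6 and 167 normalized counts at 4 min and 382, 293 and 300.1 at 8 min, a log2 difference of 0.88 ± 0.14 (SE; limma adjusted p 0.0829). AT1G76600 (chr1:28746833-28747848, plus strand) had 738, 555 and 609 normalized counts at 4 min and 1288, 1488 and 1023 at 8 min, a log2 difference of 0.99 ± 0.14 (SE; limma adjusted p 0.0654). For both genes the spread at 8 min was wider than at 4 min, and in all 6 leading genes replicate 1 was the highest library of the 4 min group. AT2G30020 shares 50-base stretches with AT2G05050 and AT4G08260 on its own strand, so a part of its reads could be assigned to either.

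**Figure D2:**
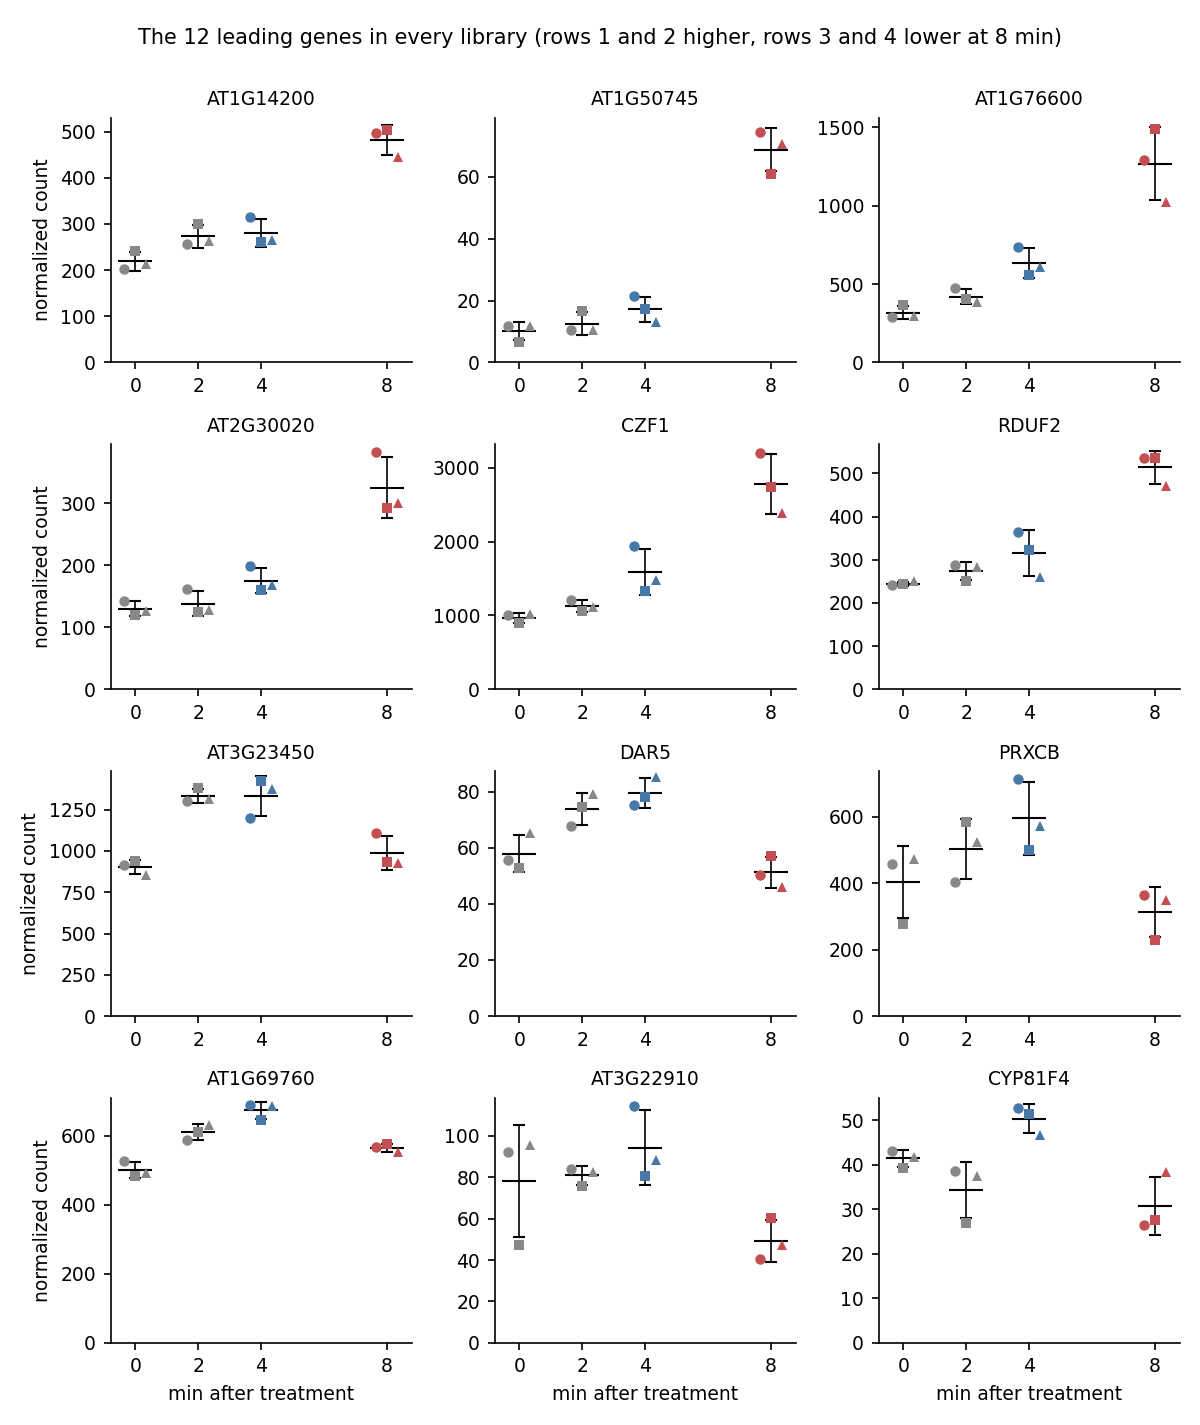
Normalized count (y axis, from 0) against minutes after treatment (x axis) for the 12 leading genes. Points are libraries (circle, square and triangle for replicates 1, 2 and 3), and bars are the mean ± SD of 3 libraries. In the top 6 panels every 8 min library lies above every 4 min library, as for AT1G14200 with 445 or more against 316 or less, and in the bottom 6 panels every 8 min library lies below.

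The sequence before the annotated start was read for the leading genes, as W-boxes, the sites of WRKY factors, are well known in quickly responding promoters. The W-box core TTGAC was present on either strand within 250 bases before the start in 5 of the 6 leading higher genes, and at least 2 times in 4 of them, where 45.3% of all 19383 promoters of tested genes held it and 14.3% held it at least 2 times. Among the 6 leading lower genes, 5 held the core as well, and 2 of them held it at least 2 times, so that the presence of a core did not separate the directions. AT1G50745 held none, and most of its upstream window is the neighbouring gene. The stretches below are the last 150 bases before the start, 5′ to 3′ on the strand of the gene, from the RefSeq genome TAIR10.1, with W-box cores (TTGAC or, on the other strand, GTCAA) in capitals. They are shown for the 5 leading genes with a core and for WRKY33, a WRKY factor described below.
CZF1 (chr2:16771847-16771996, plus strand): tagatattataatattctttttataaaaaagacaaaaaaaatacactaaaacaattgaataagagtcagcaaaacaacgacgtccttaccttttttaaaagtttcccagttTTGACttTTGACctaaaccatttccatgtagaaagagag
AT1G76600 (chr1:28746683-28746832, plus strand): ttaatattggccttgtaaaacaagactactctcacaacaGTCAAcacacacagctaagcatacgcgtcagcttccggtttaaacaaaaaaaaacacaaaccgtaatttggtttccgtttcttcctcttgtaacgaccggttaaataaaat
AT2G30020 (chr2:12814121-12814270, plus strand): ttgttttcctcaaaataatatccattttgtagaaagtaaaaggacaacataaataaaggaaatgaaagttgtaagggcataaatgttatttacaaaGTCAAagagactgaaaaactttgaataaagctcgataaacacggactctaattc
RDUF2 (chr5:24000167-24000316, minus strand): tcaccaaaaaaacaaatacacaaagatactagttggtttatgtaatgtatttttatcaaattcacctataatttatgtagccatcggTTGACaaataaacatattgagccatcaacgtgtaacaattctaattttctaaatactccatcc
AT1G14200 (chr1:4855288-4855437, minus strand): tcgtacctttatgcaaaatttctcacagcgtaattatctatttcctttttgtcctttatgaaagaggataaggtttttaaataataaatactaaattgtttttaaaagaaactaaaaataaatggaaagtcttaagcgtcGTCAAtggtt
WRKY33 (chr2:16108085-16108234, plus strand): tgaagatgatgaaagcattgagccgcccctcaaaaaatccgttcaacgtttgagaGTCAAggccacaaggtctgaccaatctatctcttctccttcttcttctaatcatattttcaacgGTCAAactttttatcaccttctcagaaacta
In CZF1 the pair of cores stands in tandem, separated by a short spacer, and in WRKY33 the pair is spread over the window. A match of letters is a description and not a binding site. The rapid stress response core CGCGTT, which may share its last letters with TTGAC, the G-box CACGTG and the GCC-box GCCGCC were found in 0 of the 6 promoters, whereas 2.72%, 7.56% and 1.97% of all promoters held them.

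The 6 leading genes with lower values at 8 min were AT3G23450, DAR5, PRXCB, AT1G69760, AT3G22910 and CYP81F4, with limma adjusted p-values of 0.232 to 0.858. PRXCB (AT3G49120, chr3:18207651-18210333, plus strand) encodes a cell wall peroxidase of the kind that makes and consumes apoplastic H2O2. It had 713, 499 and 572 normalized counts at 4 min and 363, 228 and 348 at 8 min, a log2 difference of -0.94 ± 0.22 (SE; DESeq2 adjusted p 0.0112). Its 4 min values were above the 0 min mean of 403 ± 109 (SD, n = 3) and its 8 min values below it. PRXCB shares 99 stretches of 50 bases with AT3G49110, its neighbouring peroxidase gene, so the 2 could share reads.

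AT3G23450 (chr3:8410048-8412213, plus strand), an uncharacterized protein and the other gene called lower by DESeq2 (adjusted p 0.00801), had 1197, 1426 and 1377 normalized counts at 4 min and 1108, 936 and 926 at 8 min. Its mean had been 905 ± 43.2 at 0 min and 1333 ± 43.6 at 2 min (SD, n = 3), so that the 8 min libraries lay nearer to the water libraries than to those at 2 and 4 min. AT1G69760, annotated as a suppressor SRP40-like protein, had means of 501 ± 22.6, 611 ± 22.9, 675 ± 24.7 and 566 ± 11.3 at 0, 2, 4 and 8 min (SD, n = 3). Its 8 min libraries still lay above all its water libraries. DAR5, a DA1-related protein, had 58 ± 6.59, 73.8 ± 5.75, 79.6 ± 5.24 and 51.2 ± 5.57 at the same time points. In these genes the 8 min mean thus lay below the means at both 2 and 4 min.

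AT3G22910, an E1-E2 type ATPase of the calcium pump list, had 115, 80.4 and 88.1 normalized counts at 4 min and 40.6, 60.4 and 47.1 at 8 min, a log2 difference of -0.92 ± 0.25 (SE; limma adjusted p 0.743). CYP81F4, a cytochrome P450 that modifies indole glucosinolates, had 52.8, 51.4 and 46.7 and 26.3, 27.6 and 38.2 normalized counts, a log2 difference of -0.71 ± 0.20 (SE; limma adjusted p 0.858). Both genes had 8 min libraries below all 4 min libraries, but 1 water library of AT3G22910 was as low as those at 8 min. CYP81F4 lies opposite AT4G37409, with which it shares 1423 stretches of 50 bases.

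The transcription factor genes among the 31 that DESeq2 called higher at 8 min are described first, named after their values were seen. WRKY40 (AT1G80840), a WRKY repressor of defence genes, had 448, 317 and 371 normalized counts at 4 min and 927, 1049 and 678 at 8 min (log2 difference 1.21 ± 0.25, SE; DESeq2 adjusted p 0.000121, limma 0.248). WRKY33 (AT2G38470), which directs camalexin synthesis and resistance to necrotrophic fungi, had 1075, 916 and 1081 at 4 min and 2001, 1606 and 1639 at 8 min (log2 difference 0.77 ± 0.13, SE; DESeq2 adjusted p 7.49e-05, limma 0.118). Each of the 8 min libraries was above each of the 4 min libraries for both WRKY genes, and replicate 3 at 8 min was low for WRKY40. ZAT6 (AT5G04340), a C2H2 zinc finger factor, had means of 109.7 ± 25, 168 ± 28.4, 320.3 ± 83.4 and 593 ± 98.5 normalized counts at 0, 2, 4 and 8 min (SD, n = 3; DESeq2 adjusted p for 8 against 4 min 0.00885). DREB2A (AT5G05410), a factor of the drought and heat response, went from 517 ± 109 at 4 min to 899.6 ± 123 at 8 min (SD, n = 3; DESeq2 adjusted p 0.0187). The NAC factors NAC062 and ATAF2, the GRAS factor AT3G46600 and bZIP1, a factor of the response to low energy, had smaller log2 differences of 0.53, 0.64, 0.54 and 0.39.

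Enzymes and other proteins among the 31 genes were also named after their values were seen. ACS6 (AT4G11280), an ACC synthase at the committed step of ethylene synthesis, had 261, 155 and 176 normalized counts at 4 min and 434, 435 and 368 at 8 min (log2 difference 1.09 ± 0.24, SE; DESeq2 adjusted p 0.00254, limma 0.301). OPR1 (AT1G76680), a 12-oxophytodienoate reductase, had 337, 272 and 300.3 at 4 min and 632, 551 and 523 at 8 min (log2 difference 0.91 ± 0.16, SE; DESeq2 adjusted p 5.91e-05, limma 0.118). Both genes had no overlap between time points, with the 8 min libraries of ACS6 closer to each other than those at 4 min. OPR1 shares 278 stretches of 50 bases with its neighbour AT1G76690, whose own log2 difference was 0.47. The lipase-like DLAH, the phosphatidic acid phosphatase PAP1, the glucosyltransferase UGT73B5 and the serine acetyltransferase SERAT2;1 of cysteine synthesis had log2 differences of 1.11, 0.47, 0.78 and 0.54. UGT73B5 shares 300 stretches of 50 bases with UGT73B4 (AT2G15490), whose own log2 difference was 0.14.

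DIC2 (AT4G24570), a mitochondrial dicarboxylate carrier, had the largest log2 difference of 8 min from 0 min among the 31 genes, with means of 99.6 ± 9.21, 179 ± 61.1, 493 ± 136 and 1025 ± 184 normalized counts at 0, 2, 4 and 8 min (SD, n = 3). Its DESeq2 adjusted p for 8 against 4 min was 0.000727 and its limma adjusted p 0.248. LYK5 (AT2G33580), a receptor kinase of chitin perception, and AT1G59860, a small HSP20-like chaperone, by contrast had 4 min means close to or below those in water. LYK5 had 65.6, 83.1 and 75.4 normalized counts at 0 min, 66.3, 75 and 88.9 at 4 min and 149, 128 and 135 at 8 min (DESeq2 adjusted p 0.0108). AT1G59860 had 25.5, 21.3 and 22.7, 24.7, 15 and 8.81 and 43.9, 43.7 and 39.2 (DESeq2 adjusted p 0.0484), so its 8 min libraries lay above both other groups at a low count. HSPRO2, the most abundant of the 31 with 10261 ± 1731 normalized counts at 8 min (SD, n = 3), had a log2 difference of 0.60. The remaining genes were the ubiquitin ligase CMPG2 (0.74), the BTB-TAZ protein BT5 (0.51), the purine permease PUP18 (0.47), AT4G29780, annotated as a nuclease (1.09), AT1G23710 of the DUF1645 family (0.69) and AT1G66500, annotated as pre-mRNA cleavage complex II (0.72), each with its log2 difference in brackets.

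**Figure D3:**
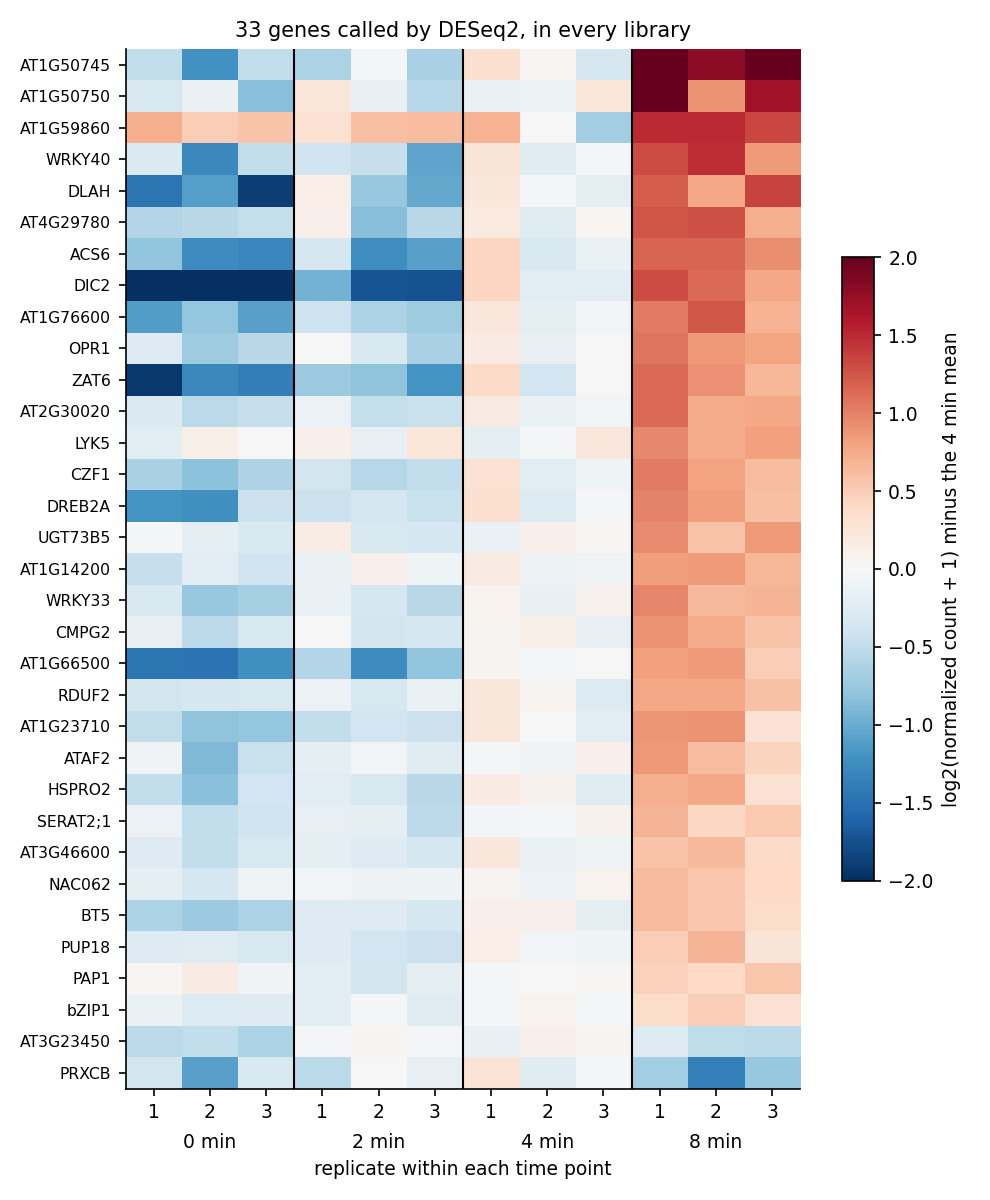
Log2(normalized count + 1) of the 33 genes called by DESeq2 in every library, minus the mean of the 4 min libraries (colour, which saturates at 2 in either direction). Columns are replicates 1, 2 and 3 within each time point, and rows are sorted by the log2 difference of 8 minus 4 min. The 8 min columns are red for 31 genes and blue for 2, and replicate 3 at 8 min is the lowest of its group in 22 of the 31.

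The libraries did not contribute evenly to the 31 genes. Replicate 3 was the lowest 8 min library in 22 of the 31 (71.0%, against 32.7% of all genes tested), and replicate 1 the highest 4 min library in 20 (64.5%, against 37.3%). The median of the 31 log2 values, taken against the 4 min mean, was 0.96, 0.78 and 0.66 in replicates 1, 2 and 3 at 8 min, and 0.17, -0.07 and -0.05 at 4 min. The order of the time points is fixed by the choice of these genes, and the order of the replicates within a time point is not.

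The libraries at 0 and 2 min, which entered the fits through the estimate of the spread but not the difference itself, were read for the same genes. No gene was called by limma from 4 to 8 min, so the 31 genes higher in DESeq2 were taken. At 2 min against 0 min, 27 of the 31 had a log2 difference above 0 (87.1%), where 49.9% of all genes tested did, and their median was 0.20. The libraries of the 2 groups overlapped in this respect. Against the 4 min mean, the median of the 31 genes was -0.32, -0.71 and -0.46 in water replicates 1, 2 and 3. At 2 min it was -0.19, -0.35 and -0.45, so water replicate 1 lay above replicates 2 and 3 of 2 min. Genes that vary together are not independent replicates. All 3 libraries at 2 min lay above all 3 at 0 min in 9 of the 31, where 9.83% of all genes tested did so. PAP1, with means of 324 at 0 min and 263 at 2 min, was among the few with the opposite order. Of the 31 genes, 16 had a single exon (51.6%, against 13.4% of tested genes with a model), while the median transcript length was 1651 bases against 1747. The W-box core was found in 18 of the 31 promoters (58.1% against 45.3%), and the heat shock element GAANNTTC in 8 (25.8% against 9.29%), both as descriptions without a test.

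The other genes of the H2O2 response were described by lists, in which limma called 0 members in either direction. Counts are therefore of members whose 3 libraries at 8 min lay all above or all below the 3 at 4 min. They stand beside 3.88% and 2.78% of all genes tested, and medians are log2 differences beside the median of 0.01 over all genes. Lists and members were chosen with earlier results of these data known, and some members were already described above for their values. The shares are therefore descriptions and no independent evidence. Most list medians within 0.1 of 0 changed sign when 1 library was left out, and no direction is read from them. Among 27 WRKY factors, 3 lay above (11.1%) and 0 below, with a median of 0.03. The 3 were WRKY40, WRKY33 and WRKY53 (AT4G23810, which shares 264 stretches of 50 bases with AT4G23800 on the opposite strand), a factor of senescence and defence with 210.0, 164 and 209.6 normalized counts at 4 min and 453, 275 and 324 at 8 min (limma adjusted p 0.995). In the other WRKY genes tested the libraries of both time points overlapped, and the median of the family lay close to 0.

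Among 14 ERF and DREB factors, 3 lay above (21.4%) and 0 below, 12 had a log2 difference above 0 and the median was 0.35, or 0.21 without replicate 3 of 4 min. ERF5 (AT5G47230), an ethylene response factor of defence, had 577, 376 and 466 normalized counts at 4 min and 726, 783 and 579.5 at 8 min (log2 difference 0.57 ± 0.16, SE; limma adjusted p 0.914). ERF6 (AT4G17490), its close relative and a target of MAP kinases in oxidative stress, had 736, 434 and 442 at 4 min and 913, 986 and 705 at 8 min. Replicate 1 of 4 min overlapped the 8 min libraries of ERF6, which kept it out of the count. All 4 min libraries of both genes lay above their 0 min means, 135 ± 13.9 for ERF5 and 202 ± 13.9 for ERF6 (SD, n = 3).

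Of 8 ZAT and AZF zinc fingers, 2 lay above (25%), ZAT6 and ZF2 (AT3G19580, also AZF2), and 0 below, with a median of 0.26, which was 0.11 without replicate 1 of 8 min and 0.13 without replicate 2 of 4 min. RHL41 (AT5G59820, also ZAT12), whose promoter is used as a reporter of H2O2, had 666, 367 and 411 normalized counts at 4 min and 741, 651 and 564 at 8 min. STZ (AT1G27730, also ZAT10) had 1992, 996 and 1159 and 1977, 1695 and 1313, a log2 difference of 0.31 ± 0.24 (SE). Replicate 1 at 4 min lay within the 8 min range for RHL41 and was the highest of the 6 libraries for STZ, while the other 2 libraries at 4 min lay below the 8 min range. Of 6 CCCH and deadenylase genes of mRNA turnover, 2 lay above (33.3%), CZF1 and SZF1, and the median was 0.25. CAF1b (AT5G22250), a deadenylase that shortens poly(A) tails, had 136, 92.1 and 160.3 and 182, 164 and 154, which overlap.

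Calcium genes were mixed. Of 14 calmodulin-like and touch genes, 2 lay above (14.3%) and 0 below, with a median of 0.08. They were CML37 (AT5G42380), a calmodulin-like calcium sensor with 20.2, 7.5 and 15.9 normalized counts at 4 min and 23, 20.5 and 25.5 at 8 min, and AT5G39670, a calcium-binding EF-hand protein, of which 61.2% lies opposite AT5G05995. TCH3 (AT2G41100), a touch gene, had 3669, 3606 and 3338 and 4464, 4466 and 3531, and replicate 3 of 8 min lay among the 4 min libraries. Of 14 calcium pumps and channels, 1 lay above (7.14%) and 2 below (14.3%), with a median of -0.04. The 1 above was AT5G66650, annotated as a calcium uniporter, with 524, 432 and 389 and 591, 680.0 and 644 (log2 difference 0.52 ± 0.13, SE; limma adjusted p 0.605). The pump AT3G22910 had the largest difference below 0 in the list, and its DESeq2 adjusted p was 0.208, against 0.0831 for AT5G66650. The other pumps had log2 differences from -0.20 (AT3G63380) to -0.01 (ACA10).

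Jasmonate and ethylene lists had medians near 0 with single members apart. Among 20 JAZ repressors and jasmonate enzymes, 2 lay above (10%) and 0 below, with a median of -0.01. OPCL1 (AT1G20510), a CoA ligase of jasmonate synthesis, had 106, 109 and 123 normalized counts at 4 min and 179.9, 129 and 156 at 8 min, and CYP94B3 (AT3G48520), which inactivates jasmonoyl-isoleucine, had 134, 96.4 and 118 and 99.8, 77 and 73.5. Among 8 ethylene synthesis genes, ACS6 was the 1 above (12.5%), and the median was 0.04. ACS8 (AT4G37770), another ACC synthase, had 111, 108 and 109 at 4 min and 61.4, 118 and 22.6 at 8 min, so its libraries lay close together at 4 min and far apart at 8 min, where replicate 3 was the lowest of the 6. Among 9 early auxin genes 0 lay above or below, with a median of 0.13. IAA19, an auxin-induced repressor, and GH3.3, which conjugates auxin, had log2 differences of 0.41 ± 0.24 and 0.29 ± 0.20 (SE), and the auxin median was 0.05 without replicate 3 of 8 min.

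Of 23 genes of pattern-triggered immunity, 3 lay above (13.0%) and 2 below (8.70%), with a median of 0.04. YLS9 (AT2G35980, also NHL10), a marker of responses to pathogens, had 52.8, 37.5 and 52.8 normalized counts at 4 min and 34, 26.3 and 27.5 at 8 min, all below (limma adjusted p 1). FRK1 (AT2G19190), a receptor kinase gene induced by flagellin, had 150.5, 236 and 267 and 183, 60.4 and 164, with overlap. MKK9 (AT1G73500), a MAP kinase kinase, had 371, 241 and 282 and 421, 559.9 and 309.9, also with overlap, so members of the list stood on both sides of 0. Of 9 mitochondrial stress genes, 2 lay above (22.2%), DIC2 and the alternative NAD(P)H dehydrogenase NDA2, which had a log2 difference of 0.17 ± 0.13 (SE). The median of the mitochondrial list was 0.15, but 0.0089 without replicate 1 of 8 min and 0.03 without replicate 2 of 4 min.

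Heat shock factors, which switch on chaperone genes, had the most members above in number. Of 17 tested, 5 lay above (29.4%) and 0 below, 14 had a log2 difference above 0 and the median was 0.17. HSFA2 (AT2G26150), an inducible factor of heat and oxidative stress, had 25.8, 25.7 and 35.2 normalized counts at 4 min and 37.3, 60.4 and 35.3 at 8 min, a log2 difference of 0.57 ± 0.24 (SE; limma adjusted p 1). Its groups were separated by a narrow margin at low counts. HSF A4A (AT4G18880), which takes part in responses to H2O2, had 267, 213 and 269 at 4 min and 372, 325 and 285 at 8 min, and HSFB2A (AT5G62020), a repressor-type factor, had 245, 248 and 201 and 297, 306 and 257. AT-HSFA7B had a log2 difference of 0.56 ± 0.31 (SE), and no member of the list passed limma or DESeq2.

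**Figure D4:**
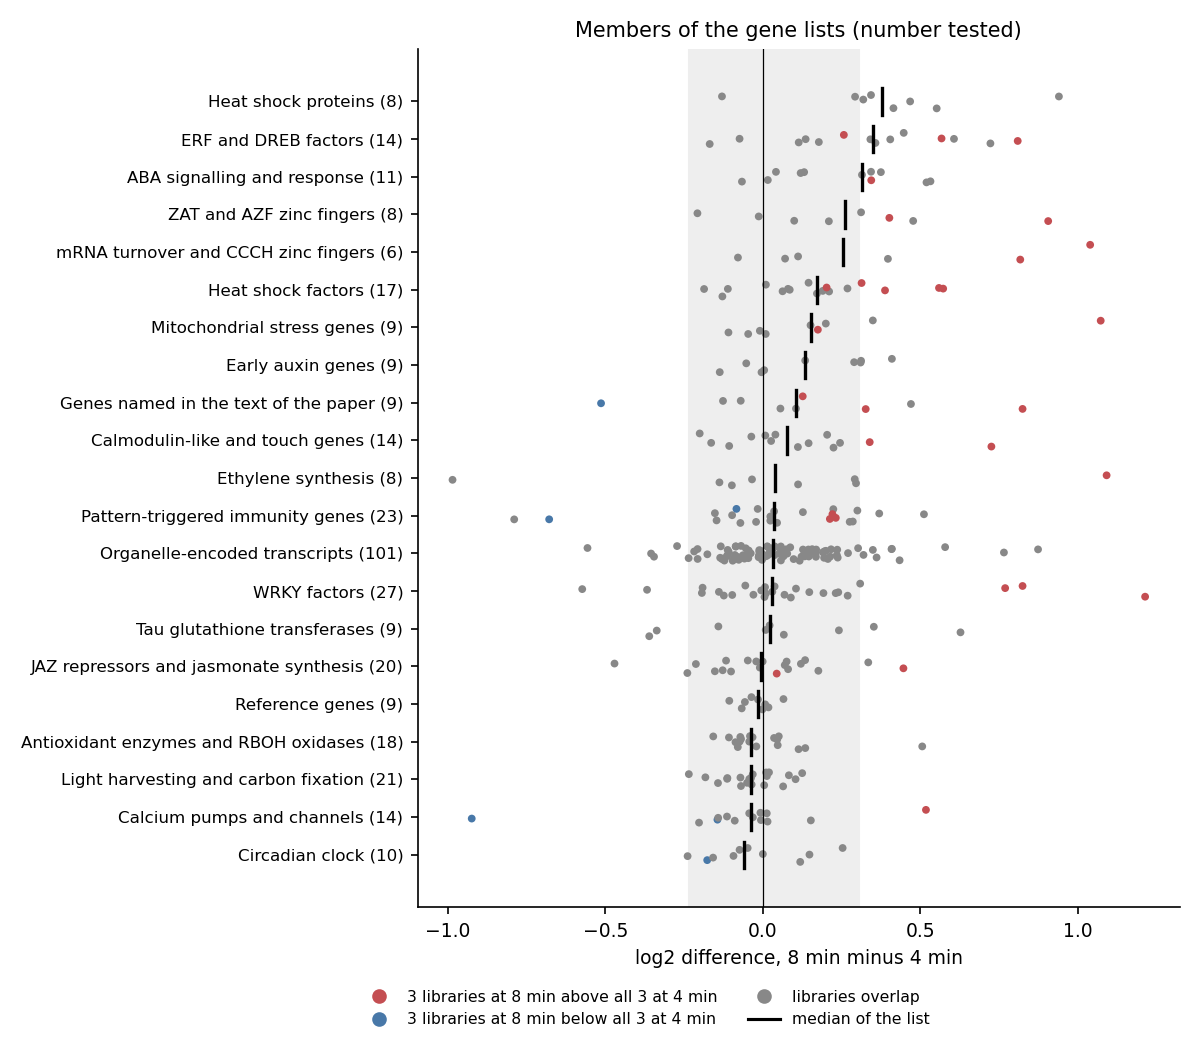
Log2 difference of 8 minus 4 min (x axis) for each tested member of the gene lists (rows, with the number tested). Red points are members whose 3 libraries at 8 min lay all above the 3 at 4 min, blue points all below, and grey points overlap. Black bars are list medians, and the grey band is the range of the middle 90% of all genes, -0.23 to 0.30. Heat shock factors hold 5 red points of 17, and the medians run from -0.06 for clock genes to 0.38 for heat shock proteins. The clock median was 0.03 without replicate 3 of 8 min, and the heat shock protein median was -0.51 without replicate 2 of 4 min.

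Some members of the heat shock protein and abscisic acid (ABA) lists were high and low in the same libraries as the seed storage transcripts. Of 8 heat shock proteins 0 lay above or below, with a median of 0.38, and of 11 ABA signalling and response genes 1 lay above (9.09%), the ABA co-receptor phosphatase ABI2, with a median of 0.31. HSP17.6A (AT5G12030), a small heat shock protein that seeds store, had 623, 31.1 and 1054 normalized counts at 4 min and 428, 1639 and 211 at 8 min. CRU3 (AT4G28520), a cruciferin, had 9808, 1483 and 17635 at 4 min and 8506, 26789 and 4884 at 8 min, and CRA1 (AT5G44120) had 16665, 2965 and 30132 and 13838, 42935 and 9464. In all of these, replicate 2 was the lowest library at 4 min and the highest at 8 min. RAB18 (AT5G66400), an ABA-induced dehydrin, had 3148, 671 and 3802 and 2793, 5648 and 1539, and HSP17.4 (AT3G46230, 59.9% of it opposite AT3G07365) had 40.4, 3.21 and 69.6 and 28.5, 99.5 and 8.83, again lowest and highest in the same libraries.

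Without replicate 2 of 4 min the median of the heat shock protein list was -0.51 and that of the ABA list 0.03, and without replicate 2 of 8 min they were 0.13 and 0.11. The summed seed storage level ranged from 4447 to 47767 normalized counts at 4 min and from 14349 to 69724 at 8 min, and its part in the list values was not tested. The cytosolic chaperones HSP70 (AT3G12580), with 1082, 565 and 1068 and 1428, 1407 and 1024 normalized counts, and HSP90.1 (AT5G52640), with 756, 405 and 709 and 886, 945 and 685, were also lowest in replicate 2 at 4 min, though by a smaller margin. For the heat shock factors the median was 0.13 without replicate 2 of 4 min and 0.10 without replicate 2 of 8 min.

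**Figure D5:**
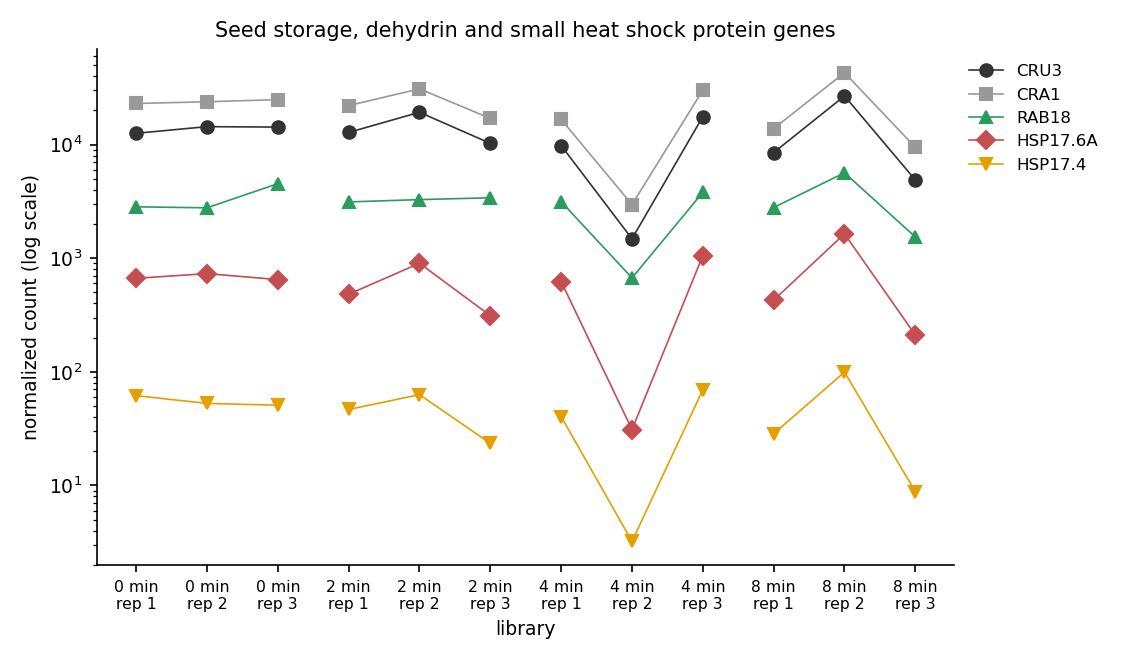
Normalized count (y axis, log scale) of 2 seed storage genes, a dehydrin gene and 2 small heat shock protein genes in each library (x axis, lines join the replicates of 1 time point). All 5 genes are lowest in replicate 2 of 4 min and, within 8 min, highest in replicate 2, as for CRU3 with 1483 and 26789.

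Lists of detoxifying enzymes, photosynthesis and housekeeping genes had medians near 0. Of 18 antioxidant enzymes and RBOH oxidases 0 lay above or below, and the median was -0.04. FSD1 (AT4G25100), an iron superoxide dismutase, had the largest log2 difference of the list, 0.51 ± 0.86 (SE), with 1095, 1459 and 2726 normalized counts at 4 min and 2414, 2214 and 2335 at 8 min, so that the spread at 4 min covered the 8 min values. GPX6, a glutathione peroxidase, had a log2 difference of -0.16 ± 0.10 (SE). Of 9 tau glutathione transferases 0 lay above or below, with a median of 0.02, and GSTU7, a detoxifying member of which 55.4% lies opposite AT2G08340, had a log2 difference of 0.63 ± 0.35 (SE). Of 21 genes of light harvesting and carbon fixation 0 lay above or below and the median was -0.04, with RBCS1B of Rubisco at -0.23 ± 0.18 and the antenna gene LHCB6 at 0.12 ± 0.10 (SE).

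Of 10 clock genes, TOC1 (AT5G61380), an evening repressor, was the 1 below (10%), with 2990.3, 3094 and 3081 normalized counts at 4 min and 2796, 2916 and 2421 at 8 min, and the list's median was -0.06. ELF4, another evening gene, had a log2 difference of -0.24 ± 0.12 (SE). Of 9 reference genes 0 lay above or below and the median was -0.02, with ACT2 at -0.11 ± 0.10 and ACT7 at 0.07 ± 0.08 (SE). Of 101 transcripts from the chloroplast and mitochondrial genomes 0 lay above or below, with a median of 0.03. Of 9 genes named in the study's text, which were chosen there with these libraries in view and are no independent evidence, 3 lay above (33.3%) and 1 below (11.1%). Besides WRKY53, these included the calmodulin-binding protein AT3G13600, with 148, 136 and 143 and 211, 157 and 173 normalized counts, and, below, the GDSL lipase AT1G29670, with 7083, 6184 and 6344 and 5236, 5081 and 3591 (limma adjusted p 1). Tissue markers likewise had adjusted p-values near 1 in limma, but the xylem cellulose synthase IRX1 (also CESA8) and the root epidermis factor GL2 had 8 min libraries that all lay above those at 4 min, with log2 differences of 0.51 ± 0.19 and 0.33 ± 0.16 (SE). The other root epidermis markers, EXPA7, SHV2 and EXPA18, had log2 differences of -0.40, -0.20 and -0.14. The other vasculature markers, CESA4, IRX3 and SUC2, had log2 differences of 0.26, 0.24 and -0.04, and their libraries overlapped between time points.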

How the data were processed

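Total RNA was isolated and made into libraries with a stranded TruSeq kit for mRNA, and whether the counting used strand is not given in the sources used here. The submitters' processing notes name FastQC 0.11.7, STAR 2.4.0.1, DESeq2 1.20.0 and the TAIR10 build, and the counting program is not given in the sources used here. The deposited table holds a signal that the authors made by dividing gene counts by DESeq2 size factors, 1 column per library, and all 12 columns were used. Whole reads were recovered by dividing each column by its smallest step, and 100% of values came out whole within a relative tolerance of 1e-06. Totals were 13558388 to 26618274 reads. The main test was limma 3.58.1 in R 4.3.3 (variance trend, two-sided) on log2(normalized count + 1), so that differences of low genes are understated. edgeR 4.0.16 and DESeq2 1.42.0 on the recovered reads, other pseudocounts (0.1 and 5), filters, scalings, a replicate block and leaving out each library were alternatives. Only limma, edgeR and DESeq2 in their main settings were run on simulated data, where DESeq2 had the largest share of false calls. Python 3.11.15 and matplotlib 3.10.9 were used for summaries and plots.

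Genes named were the 6 per direction with the lowest unadjusted p and no overlap of libraries, as fewer than 12 passed the threshold, and up to 4 members per list by the size of the log2 difference. Genes called by DESeq2 were named in addition. Members and lists were chosen with earlier results of these data known. Names, positions, exons and upstream sequence came from the RefSeq annotation of TAIR10.1, which had a model for 20858 of 20972 genes.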

Additional observations from a re-analysis of the deposited data

How the results depend on the processing

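The number of genes called higher at 8 min was 0 with limma and was also 0 with a pseudocount of 0.1, with no filter, with a mean of at least 50, after quantile normalization or TMM scaling, and with the 6 libraries fitted alone. It was 2 with a pseudocount of 5, 2 with edgeR, 31 with DESeq2, and, in runs chosen after seeing the data, 31 with DESeq2 on all listed genes and 30 with DESeq2 on the 6 libraries alone, where 27 of the 33 DESeq2 calls in both directions were shared. Genes called lower numbered 2 with DESeq2, 2 with DESeq2 on all listed genes, 4 with DESeq2 on the 6 libraries and 0 elsewhere. Leaving out 1 library at a time gave 0 to 6 higher genes (6 without replicate 1 of 4 min, 2 without replicate 2 of the water group, 1 without replicate 3 of 8 min) and 0 lower genes, and all 6, 2 and 1 were among the DESeq2 calls. The cause of these differences was not tested. Of 2064 values of the 83 genes named, 2058 kept their direction. The exceptions arose without replicate 2 of 4 min (HSP17.6A -0.61, HSP17.4 -0.81, RAB18 -0.26, CRU3 -0.34 and CRA1 -0.33) and, for HSP17.4 at -0.44, without replicate 2 of 8 min. Over all leave-one-out fits the log2 differences ranged from -0.61 to 1.91 for HSP17.6A, -0.81 to 1.24 for HSP17.4, -0.26 to 0.99 for RAB18, -0.34 to 1.44 for CRU3 and -0.33 to 1.34 for CRA1.

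With the replicate number as a block in the limma fit, 8 genes were called higher and 0 lower, and 7 of the 8 were among the DESeq2 calls. Deviations of same-numbered libraries at 4 and 8 min had correlations of 0.23, -0.33 and -0.23, and 2 of the 6 libraries correlated best with their own number. With so few libraries per time point, these values cannot settle whether the numbers pair the libraries. The labels call the number a repeat and do not say whether a repeat shared a culture or a day.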
